A study of Homo sapiens with 8 samples.

Results

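The TRIM (tripartite motif) family was followed in SK-UT-1 cells, a human uterine leiomyosarcoma cell line, after treatment with TP-472, which the sample labels name as an inhibitor of the bromodomain proteins BRD9 and BRD7. Members were all genes whose symbol is TRIM followed by a number. They were 66 of the 60282 genes listed, 59 of them had a count in at least 1 library, and 42 exceeded 1 CPM (a count scaled to the size of its library) in 4 or more libraries and were tested among 14073 such genes. Cells of this 1 line received 5 µM TP-472 or vehicle for 48 h, all of them grown in the same medium with fetal bovine serum, and total RNA was sequenced in 4 libraries per group. The libraries held 32574716 to 38545695 estimated counts each. Nothing in the labels says that the replicates came from separate cultures, although the methods speak of biological replicates for the study's experiments in general. The p-values measure only the spread between these libraries, which may be technical.

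Most TRIM proteins have a RING domain, B-box zinc fingers and a coiled coil, although some lack the RING domain, and most are ubiquitin ligases. Their C-terminal part sets what they bind: a PRY-SPRY domain in many antiviral members, a PHD finger and bromodomain in nuclear members that read chromatin, NHL repeats in members that bind RNA or cargo, and a COS box in members that sit on microtubules. Many family genes are induced by interferon, and several of the proteins act in the RIG-I and STING pathways that sense viral nucleic acid.

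With TP-472, 3 of the 42 tested TRIM genes were higher (TRIM36, TRIM35 and TRIM71) and 7 were lower (TRIM22, TRIM34, TRIM14, TRIM45, TRIM56, TRIM66 and TRIM2), where a call needed an adjusted p-value under 0.05 in edgeR's quasi-likelihood test and a change of more than 1.5-fold. The largest falls and rises were in TRIM22, an interferon-induced antiviral ligase, at 0.135 times its vehicle level, and TRIM36, a microtubule-associated ligase, at 4.93 times. The 10 called genes were 23.8% of the tested members. Among all genes tested 26.9% were called, 12.0% higher and 14.9% lower, so the share of called TRIM genes was near that of genes at large. The median log2 fold change of TP-472 over vehicle was -0.14 over the tested TRIM genes and -0.03 over all genes, and the medians of its size were 0.37 and 0.40. Of the tested members 28 had a negative and 14 a positive log2 fold change. Without any 1 of TP-472 replicates 1, 2 and 3 the genes called lower were 4, since TRIM34, TRIM56 and TRIM66 then missed the threshold. That was 9.52% of the tested members, against 9.86% to 10.6% of all genes called lower in the same fits.

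**Figure D1:**
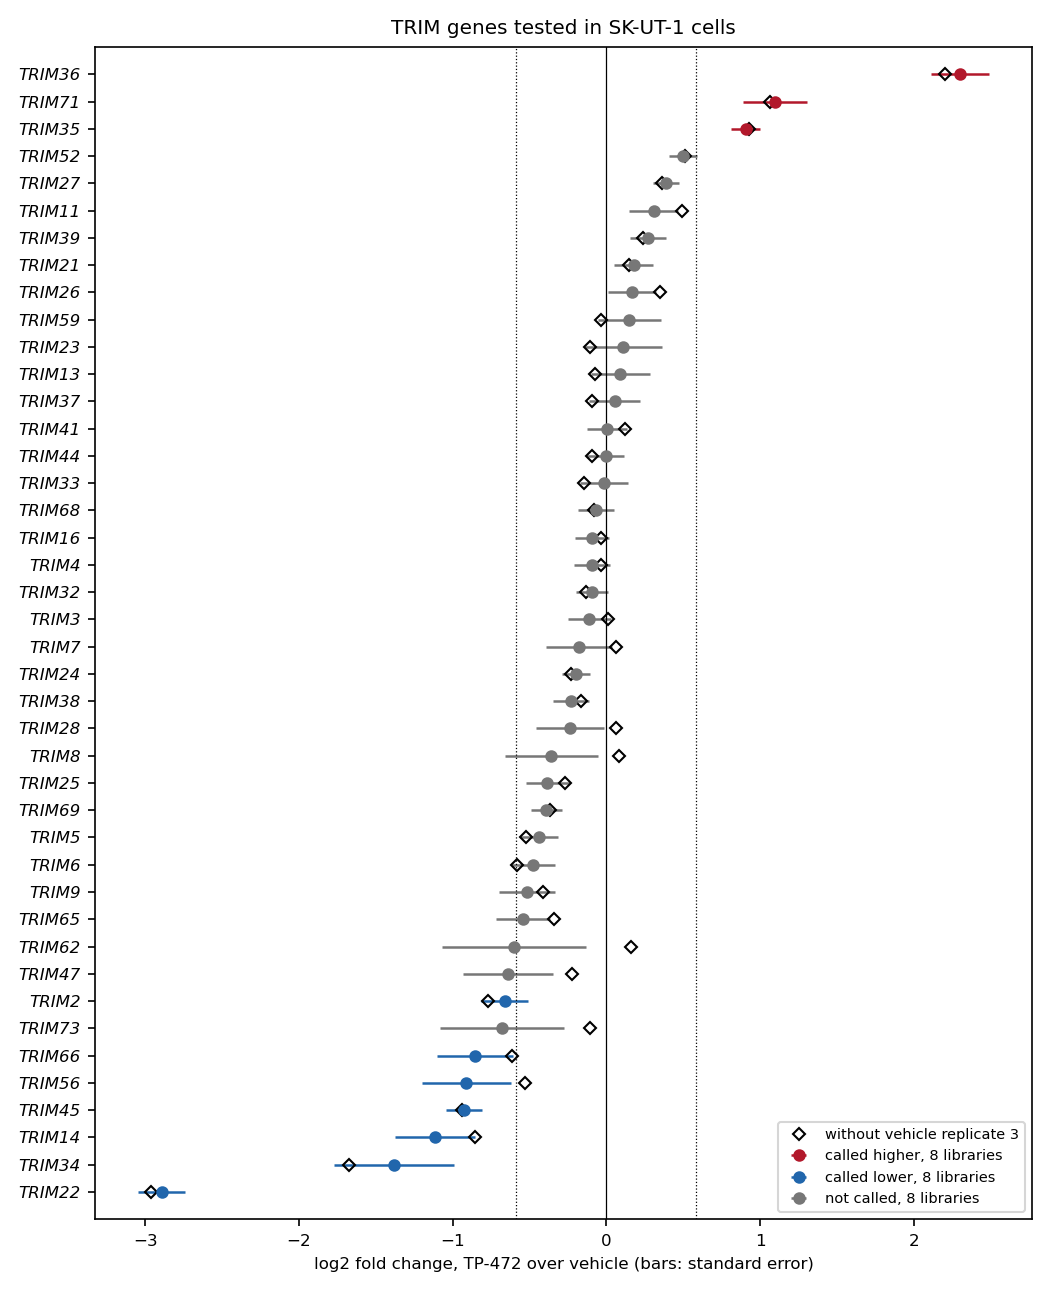
Log2 fold change of TP-472 over vehicle (x axis) for each of the 42 tested TRIM genes (y axis), as points with bars of 1 standard error over 8 libraries, and as open diamonds without vehicle replicate 3; dotted lines mark 1.5-fold. TRIM22 lies lowest at -2.89, TRIM36 highest at 2.30, and 9 genes change sign when that library is left out.

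One library stood apart from the others. Vehicle replicate 3 lay outside the range of the other 3 vehicle libraries for 38 of the 42 tested TRIM genes (90.5%) and for 12230 of all 14073 genes (86.9%). The median absolute log2 difference over the TRIM genes was 0.422 to 0.537 between vehicle replicate 3 and another vehicle library, 0.0486 to 0.190 between the other vehicle libraries, 0.0674 to 0.150 between TP-472 libraries, and 0.233 to 0.368 between the groups when vehicle replicate 3 was not counted. It was therefore farther from its own group than the groups were from each other. Its deviation followed GC content: TRIM genes with GC-rich transcripts read high in it and those with GC-poor transcripts read low, with a Spearman correlation of 0.855 across the 42 genes and 0.779 across 13970 genes, which share the library. The difference between TP-472 and the other 3 vehicle libraries had a correlation with GC content of 0.189 over the TRIM genes and -0.0756 over all genes. Summed over the family, the 8 libraries held 1744, 1662, 2050 and 1680 CPM with vehicle and 1644, 1625, 1596 and 1649 CPM with TP-472, with vehicle replicate 3 the highest. Much of that height came from 1 gene, TRIM28, at 620 CPM in vehicle replicate 3 and 356, 298 and 317 CPM in vehicle replicates 1, 2 and 4.

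Without vehicle replicate 3, 9 TRIM genes were called (21.4%, against 25.5% of all genes), 3 higher and 6 lower. TRIM56 was the call lost, and none was gained. The median log2 fold change was then -0.09 over the TRIM genes and 0.00 over all genes to 2 decimals.

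**Figure D2:**
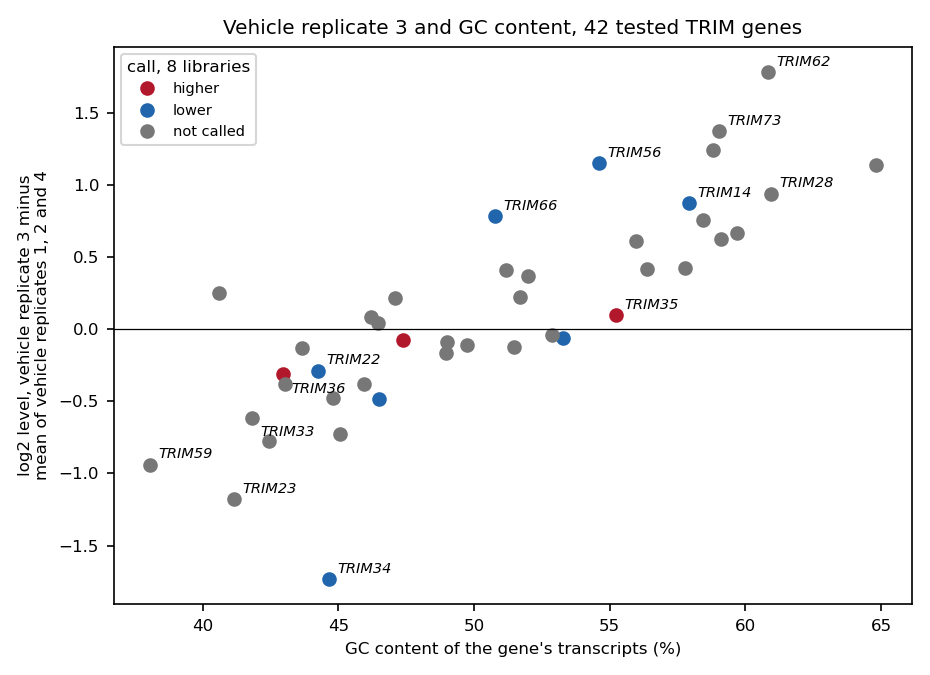
Log2 level of each tested TRIM gene in vehicle replicate 3 minus the mean of the other 3 vehicle libraries (y axis) against the GC content of its transcripts in percent (x axis), coloured by call in 8 libraries. The points rise from GC-poor to GC-rich genes, and TRIM34 lies farthest below the trend with a difference of -1.73.

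The interferon-linked members were 10 genes, all tested: TRIM5, TRIM14, TRIM21, TRIM22, TRIM25, TRIM26, TRIM34, TRIM38, TRIM56 and TRIM69. TRIM22, TRIM34, TRIM14 and TRIM56 fell, none rose, and 6 were not called, where 14.9% of all genes fell. Without vehicle replicate 3 they were 3 of 10, against 13.4% of all genes, and without vehicle replicate 1 or any 1 TP-472 library they were 2 of 10, against 9.86% to 12.2% of all genes. Their median log2 fold change was -0.41, and -0.45 without that library. Because these genes are known for their response to interferon, their promoters are shown where the window held the pattern GAAANNGAAA or its reverse complement TTTCNNTTTC, the core of the interferon-stimulated response element. Windows of 300 bases, from 250 before to 50 after the transcription start, came from RefSeq on GRCh38.p14. The pattern was in 6 of the 9 members with a window (66.7%: TRIM5, TRIM14, TRIM21, TRIM26, TRIM34 and TRIM69) and in 1195 of the 27305 genes with a window (4.38%). TRIM22 had no window. TRIM25, TRIM38 and TRIM56 had no match in theirs, which says only that these letters are not there. Of the interferon-linked genes whose windows hold the pattern, TRIM14 and TRIM34 are shown because they fell and TRIM21 because it was not called, and each is written 5′ to 3′ on the gene's strand with the matched letters in capitals.
The TRIM14 window is chr9:98119173-98119472 on the minus strand, with TTTCGGTTTC starting at position -26 from the transcription start.
TRIM14: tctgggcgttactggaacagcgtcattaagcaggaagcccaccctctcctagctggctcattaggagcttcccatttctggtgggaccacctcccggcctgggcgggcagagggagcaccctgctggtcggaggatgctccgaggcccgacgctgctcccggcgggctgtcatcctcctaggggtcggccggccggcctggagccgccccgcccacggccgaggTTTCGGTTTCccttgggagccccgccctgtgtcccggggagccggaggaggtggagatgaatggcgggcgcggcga
The TRIM34 window is chr11:5624751-5625050 on the plus strand, with TTTCACTTTC starting at -90, and a second TRIM34 window has no match.
TRIM34: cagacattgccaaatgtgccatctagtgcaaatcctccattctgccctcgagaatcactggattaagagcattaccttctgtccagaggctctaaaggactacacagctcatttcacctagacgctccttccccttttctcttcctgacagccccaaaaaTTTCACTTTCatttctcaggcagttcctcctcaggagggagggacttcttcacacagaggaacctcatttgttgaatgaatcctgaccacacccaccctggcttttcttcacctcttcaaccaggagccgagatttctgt
The TRIM21 window is chr11:4393653-4393952 on the minus strand, with matches that overlap, starting at 17 and 23.
TRIM21: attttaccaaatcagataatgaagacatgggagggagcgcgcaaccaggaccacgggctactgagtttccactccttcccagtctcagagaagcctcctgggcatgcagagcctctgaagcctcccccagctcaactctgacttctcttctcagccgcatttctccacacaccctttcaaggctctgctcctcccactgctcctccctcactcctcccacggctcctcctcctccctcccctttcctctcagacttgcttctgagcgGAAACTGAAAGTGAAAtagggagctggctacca
So the pattern was in the promoters of TRIM14 and TRIM34, which fell, and of TRIM5, TRIM21, TRIM26 and TRIM69, which were not called. Outside the interferon-linked list it was in a window of TRIM2, which fell, and of TRIM16 and TRIM44, which were not called.

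TRIM22 (ENSG00000132274.16, chr11:5689689-5737089, plus strand; GRCh38, as all gene positions here) blocks transcription of retroviral genomes and is among the most strongly interferon-induced members. It was at 15.4, 16, 13 and 16.4 CPM with vehicle and at 2.07, 2.0, 2.39 and 1.72 CPM with TP-472. Every TP-472 library lay far below every vehicle library, vehicle replicate 3 included. Its log2 fold change was -2.89 (SE 0.156; edgeR, Benjamini-Hochberg adjusted p = 1.7e-05), and -2.96 without vehicle replicate 3. Its exons share 642 bases with OR56B1 on the same strand, so some of its reads could be counted to either gene.

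TRIM34 (ENSG00000258659.6, chr11:5619764-5644398, plus strand) is a close relative of TRIM5 that acts with it against retroviral capsids. It was at 7.81, 9.51, 2.26 and 8.74 CPM with vehicle and at 2.85, 3.07, 2.91 and 2.03 CPM with TP-472. The groups overlapped, and they did so through vehicle replicate 3 alone. edgeR's log2 fold change was -1.38 (SE 0.392; edgeR adjusted p = 0.0243), and -1.68 without that library (edgeR adjusted p = 2.1e-05). The call did not hold without vehicle replicate 1 or any 1 TP-472 library (edgeR adjusted p = 0.0555 to 0.0696). TRIM34 shares 2233 exon bases with a read-through gene that joins TRIM6 and TRIM34 and is listed on its own. The read-through gene was listed at 0, 0, 4.81 and 0 CPM with vehicle and at 0.518, 0, 0 and 0 CPM with TP-472. Nearly all of it was thus in the library where TRIM34 read low. With the counts of both genes added, TRIM34 was at 7.81, 9.51, 7.06 and 8.74 CPM with vehicle and at 3.37, 3.07, 2.91 and 2.03 CPM with TP-472. The groups then no longer overlapped, and the log2 fold change was -1.54 (SE 0.189; edgeR adjusted p = 6.3e-04). TRIM6, whose ligase activity feeds interferon signalling, went from -0.48 (edgeR adjusted p = 0.0281) to -0.53 (edgeR adjusted p = 0.0066) with the read-through counts added.

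**Figure D3:**
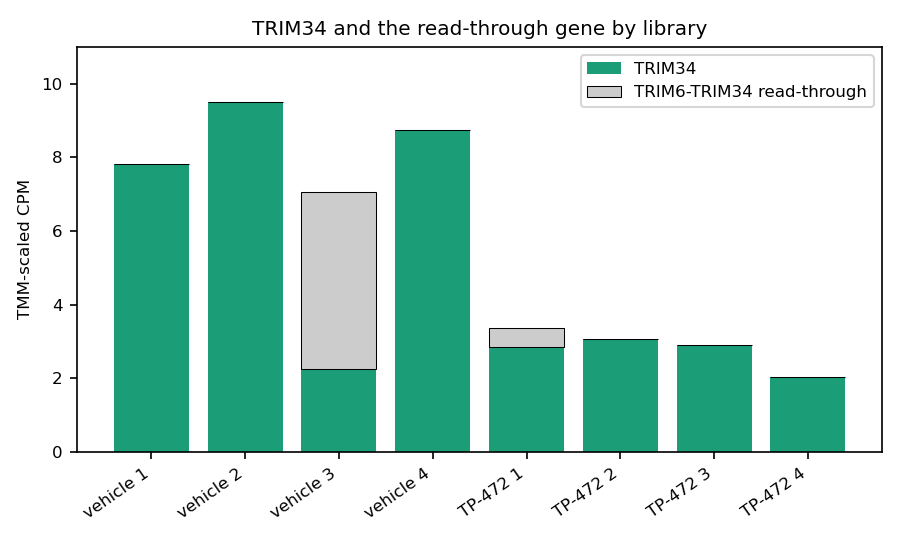
TMM-scaled CPM (y axis) of TRIM34 and, stacked on it, of the TRIM6-TRIM34 read-through gene in each of the 8 libraries (x axis). In vehicle replicate 3 TRIM34 is at 2.26 CPM and the read-through gene at 4.81 CPM, and the stacked bars of all vehicle libraries stand above those of all TP-472 libraries.

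TRIM14 (ENSG00000106785.15, chr9:98069275-98119212, minus strand), an adaptor without a RING domain that helps MAVS and cGAS signalling, was at 52.1, 31.9, 70.6 and 33.7 CPM with vehicle and at 21.6, 20.1, 18.8 and 26.5 CPM with TP-472. All TP-472 libraries were lower, but vehicle replicates 1 and 3 read well above the other vehicle libraries. This gave a log2 fold change of -1.12 (SE 0.258; edgeR adjusted p = 0.0108), and -0.85 without vehicle replicate 3. Its exons share 422 bases with NANS on the opposite strand.

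TRIM56 (ENSG00000169871.13, chr7:101085439-101097967, plus strand), an antiviral ligase linked to STING and TLR3 signalling, was at 59.6, 41.5, 108 and 44.7 CPM with vehicle and at 36.1, 32.9, 27.1 and 38.7 CPM with TP-472. The groups did not overlap, although the highest TP-472 library came close to the lowest vehicle library. The log2 fold change was -0.91 (SE 0.292; edgeR adjusted p = 0.0380). Without vehicle replicate 3 it was -0.53 (edgeR adjusted p = 0.0116), under 1.5-fold and so not called, and the call was also lost without vehicle replicate 1 or any 1 TP-472 library (edgeR adjusted p = 0.0658 to 0.104).

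Of the 6 other interferon-linked members, TRIM5 and TRIM69 passed the adjusted p-value below 1.5-fold. TRIM5, which binds incoming retroviral capsids, was at 46.9, 54.8, 40.1 and 55.6 CPM with vehicle and at 36.8, 36.2, 38.1 and 34.6 CPM with TP-472, with a log2 fold change of -0.44 (SE 0.124; edgeR adjusted p = 0.0243). TRIM69, which inhibits some RNA viruses, had a mean of 35.4 ± 1.96 CPM with vehicle and 27.1 ± 1.69 CPM with TP-472 (SD, n = 4) and a log2 fold change of -0.39 (SE 0.0999; edgeR adjusted p = 0.0165). Both had all TP-472 libraries below all vehicle libraries. TRIM5 no longer passed without vehicle replicate 2 or 4 or any 1 TP-472 library (edgeR adjusted p = 0.0569 to 0.0697), nor TRIM69 without TP-472 replicate 1 or 2 (edgeR adjusted p = 0.0557 to 0.0594). The other four missed the threshold in 8 libraries. TRIM25, the ligase that activates RIG-I, had a log2 fold change of -0.38 (edgeR adjusted p = 0.0563), and -0.27 without vehicle replicate 3 (edgeR adjusted p = 0.0303), below 1.5-fold in both. TRIM38, a brake on innate signalling, had -0.23 (edgeR adjusted p = 0.148). TRIM21, the cytosolic antibody receptor, had 0.18 (edgeR adjusted p = 0.286). TRIM26 had 0.17 (edgeR adjusted p = 0.411), and 0.35 without vehicle replicate 3 (edgeR adjusted p = 0.0012), which was still below 1.5-fold.

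The signalling genes around these ligases were described by lists of their own. In a list of 15 genes of RIG-I and STING signalling, 5 fell with and without vehicle replicate 3 and none rose, where 14.9% of all genes fell. The median log2 fold change was -0.24, and -0.08 without that library. The 5 were the RNA sensors DDX58, which encodes RIG-I, at -1.59 and IFIH1, which encodes MDA5, at -2.07, their adaptor MAVS at -1.06 (-0.75 without vehicle replicate 3), the DNA sensor IFI16 at -1.11 and STING1 at -2.17. IFIH1 was at 180, 174, 145 and 166 CPM with vehicle and at 40.6, 36.5, 40.5 and 40.2 CPM with TP-472, so that each TP-472 library held less than each vehicle library by a wide margin. In a list of 9 interferon signalling genes, 5 fell and none rose, with a median of -0.76, where 14.9% of all genes fell. Without vehicle replicate 3, 4 fell with a median of -0.51, against 13.4% of all genes. Among the 5 were STAT2 at -1.41, IRF9 at -1.57, IRF7 at -1.5 and the kinase TYK2 at -0.76, the last not called without vehicle replicate 3 (-0.51). Adjusted p-values of the genes named from these lists in edgeR were at most 0.0168. Of 9 ubiquitin-conjugating enzymes and enzyme variants that work with TRIM ligases, UBE2N (0.75) and UBE2D1 (0.71) rose and none fell, where 12.0% of all genes rose. Without vehicle replicate 3, UBE2D1 was below 1.5-fold at 0.53, and the list's median went from 0.38 to 0.14.

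Among relatives whose symbols lie outside the naming rule, 4 of 14 were tested. PML, the scaffold of nuclear bodies and itself an interferon-induced member of the family, was at 35.8, 20.3, 99.6 and 21.2 CPM with vehicle and at 15, 13.3, 12.3 and 15.9 CPM with TP-472. The groups were apart, and vehicle replicate 3 carried much of the difference. Its log2 fold change was -1.65 (SE 0.484; edgeR adjusted p = 0.0281), and -0.87 without that library. TRIM16L was not called in 8 libraries at -0.56, and was called lower without vehicle replicate 3 at -0.63 (edgeR adjusted p = 3.6e-04), which makes 2 lower of 4, where 13.4% of all genes fell. The microtubule-binding ligases MID1 and MID2 had 0.14 and 0.06.

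The family's PHD-bromodomain members had 1 call among 4 tested genes, where 26.9% of all genes were called. TRIM66 (ENSG00000166436.16, chr11:8612037-8682694, minus strand), the member of this class without a RING domain, was at 16.7, 11.6, 22.7 and 11.3 CPM with vehicle and at 8.31, 8.01, 7.24 and 10.9 CPM with TP-472. There was no overlap, but TP-472 replicate 4 was just under the lowest vehicle library. edgeR's log2 fold change was -0.85 (SE 0.245; edgeR adjusted p = 0.0255), and -0.62 without vehicle replicate 3 (edgeR adjusted p = 0.0127). Without vehicle replicate 1 or any 1 of TP-472 replicates 1, 2 and 3 it was not called (edgeR adjusted p = 0.0621 to 0.0778). TRIM66 shares 94 exon bases with RPL27A, a ribosomal protein gene on the opposite strand.

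TRIM28, the corepressor that KRAB zinc finger proteins recruit, was at 356, 298, 620 and 317 CPM with vehicle and at 346, 352, 333 and 322 CPM with TP-472. Apart from vehicle replicate 3 the libraries of both groups lay in the same range. Its log2 fold change was -0.24 (SE 0.223; edgeR adjusted p = 0.423) and turned to 0.06 without that library. TRIM24, a reader of acetylated histone H3 and coregulator of nuclear receptors, had -0.20 (edgeR adjusted p = 0.126), and -0.23 without vehicle replicate 3 (edgeR adjusted p = 0.0117), below 1.5-fold. TRIM33, which acts on SMAD signalling, had -0.01 (edgeR adjusted p = 0.951), and -0.145 without that library (edgeR adjusted p = 0.147). Of 8 genes of the TRIM28 silencing machinery, 2 fell and none rose, namely CBX5, which encodes the heterochromatin protein HP1 alpha, at -0.95 and the remodeller CHD3 at -1.08. Without vehicle replicate 3, 4 of the 8 were called lower. Over all genes 14.9% fell, and 13.4% without that library.

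Of the 4 NHL members 1 was higher, 1 was lower and 2 were not called, where 12.0% of all genes rose and 14.9% fell. TRIM71 (ENSG00000206557.6, chr3:32818018-32897826, plus strand), an RNA-binding protein of embryonic and stem cells that is a classical target of let-7, was at 0.831, 1.09, 0.897 and 1.01 CPM with vehicle and at 2.38, 1.89, 1.53 and 2.40 CPM with TP-472. The groups did not overlap. This gave a log2 fold change of 1.10 (SE 0.209; edgeR adjusted p = 0.0046), and 1.07 without vehicle replicate 3. It was the member just inside the filter, over 1 CPM before TMM scaling in 5 libraries, 4 of them TP-472 libraries, and would not have been tested at its vehicle level.

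TRIM2 (ENSG00000109654.15, chr4:153152342-153339320, plus strand), a ligase best known in neurons, was at 21.9, 24.0, 16.2 and 22.8 CPM with vehicle and at 13.7, 11.3, 14.2 and 14.5 CPM with TP-472. All TP-472 libraries were again lower, and vehicle replicate 3 was the lowest vehicle library. The log2 fold change was -0.66 (SE 0.154; edgeR adjusted p = 0.0110), and -0.77 without that library. TRIM3 and TRIM32, the other NHL members, had -0.11 (edgeR adjusted p = 0.551; 0.01 without vehicle replicate 3) and -0.09 (edgeR adjusted p = 0.494).

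TRIM36 (ENSG00000152503.9, chr5:115124762-115180546, minus strand), which carries a COS box, a fibronectin repeat and a PRY-SPRY domain, was at 2.41, 1.5, 1.42 and 1.83 CPM with vehicle and at 8.75, 9.16, 8.57 and 8.88 CPM with TP-472. The TP-472 libraries were close to each other and all far above the vehicle libraries. Its log2 fold change was 2.30 (SE 0.190; edgeR adjusted p = 9.8e-05), and 2.21 without vehicle replicate 3. TRIM9, the other tested member of that architecture, had -0.52 (SE 0.182; edgeR adjusted p = 0.0518), and -0.42 without vehicle replicate 3 (edgeR adjusted p = 0.0450), below 1.5-fold.

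TRIM35 (ENSG00000104228.13, chr8:27284887-27311319, minus strand), a PRY-SPRY ligase, was at 19.2, 18.5, 19.7 and 17.3 CPM with vehicle and at 33.8, 34.9, 35.1 and 36.2 CPM with TP-472. Each group was tight and the groups did not overlap. edgeR's log2 fold change was 0.91 (SE 0.0965; edgeR adjusted p = 3.2e-04), and 0.93 without vehicle replicate 3. It was the only PRY-SPRY member without further C-terminal domains that was called higher among 20 tested, against 2 called lower, TRIM22 and TRIM34, where 12.0% of all genes rose and 14.9% fell.

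TRIM45 (ENSG00000134253.10, chr1:117111060-117122587, minus strand), which carries a filamin-type repeat without NHL repeats, was at 12.1, 11.1, 10.8 and 10.8 CPM with vehicle and at 6.42, 5.89, 5.74 and 5.52 CPM with TP-472. No library of one group came near the other, and vehicle replicate 3 was like its neighbours. This gave a log2 fold change of -0.92 (SE 0.118; edgeR adjusted p = 7.6e-04), and -0.94 without that library.

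**Figure D4:**
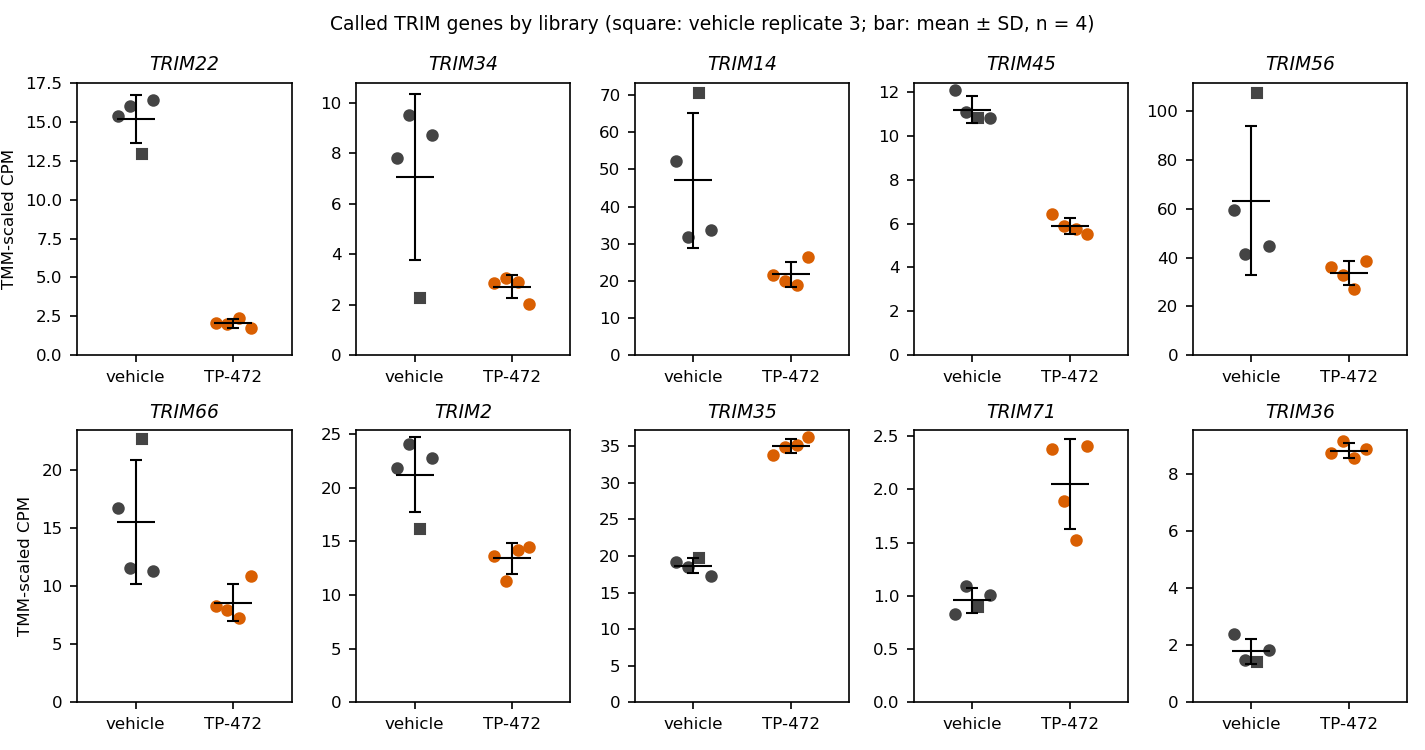
TMM-scaled CPM (y axes, each from 0) of the 10 called TRIM genes in each vehicle and TP-472 library, with vehicle replicate 3 as a square and bars for mean ± SD over 4 libraries. The groups are apart for all but TRIM34, where vehicle replicate 3 at 2.26 CPM lies among the TP-472 libraries.

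The other 32 tested members were not called, with log2 fold changes from -0.68 (TRIM73, -0.105 without vehicle replicate 3) to 0.50 (TRIM52). Of these, 6 passed the adjusted p-value below 1.5-fold in edgeR: besides TRIM5, TRIM6 and TRIM69 they were TRIM65, a ligase for MDA5, at -0.54 (edgeR adjusted p = 0.0406; -0.34 without vehicle replicate 3; adjusted p = 0.0560 to 0.104 without vehicle replicate 4 or any 1 TP-472 library; -0.21, adjusted p = 0.0532, with the GC trend removed), TRIM27 at 0.39 (edgeR adjusted p = 0.0096) and TRIM52 at 0.50 (edgeR adjusted p = 0.0041). At any fold 16 TRIM genes (38.1%) therefore passed, against 36.3% of all genes. The groups did not overlap for 17 TRIM genes (40.5%), 5 higher and 12 lower, against 45.4% of all genes, and without vehicle replicate 3 for 21 of 42, against 58.5% of all genes. TRIM37, a ligase of centrosomes and peroxisomes and with TRIM28 and TRIM33 one of the 3 most abundant members by mean CPM over all 8 libraries, had 0.06 (edgeR adjusted p = 0.811), and -0.10 without vehicle replicate 3. For 9 of the 42 genes the sign of the log2 fold change differed without vehicle replicate 3, and none of them was called.

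Levels were also compared per kilobase of exon, so that genes of different length could be set side by side. TRIM28 was the highest member in both groups, at 98.7 ± 37.1 CPM per kilobase with vehicle and 83.8 ± 3.38 with TP-472 (SD, n = 4). TRIM37 followed at 18.5 and TRIM21 at 15.5 CPM per kilobase with vehicle, also without vehicle replicate 3. TRIM26 came next at 12.4, but fell behind TRIM33 without that library (11 and 11.8 CPM per kilobase), and the median over the 42 genes was 4.09 with vehicle and 4.05 with TP-472. TRIM71 was the lowest tested member with vehicle at 0.110 CPM per kilobase. In this order the called genes that fell went from rank 30 to 40 (TRIM22), 10 to 22 (TRIM14), 15 to 25 (TRIM56), 28 to 35 (TRIM34), 29 to 33 (TRIM45), 37 to 38 (TRIM66) and 33 to 32 (TRIM2). TRIM35 went from rank 20 to 8 and TRIM36 from 41 to 31, while TRIM71 stayed at 42. Without vehicle replicate 3 the vehicle ranks of TRIM14 and TRIM56 were 14 and 19, and those of the other called genes moved by at most 2 places.

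By position, chromosome 11 held most listed members, 15, of which 9 were tested and 3 fell (TRIM22, TRIM34 and TRIM66), where 14.9% of all genes fell. Without vehicle replicate 1 or any 1 of TP-472 replicates 1, 2 and 3 TRIM22 alone was called there. TRIM6, TRIM34, TRIM5 and TRIM22 lie side by side at chr11:5596109-5938619, and TRIM22 and TRIM34 were lower by more than 1.5-fold. At any fold, all 4 were lower with an adjusted p-value under 0.05 in edgeR, as were 19.1% of all genes. This pass was lost for TRIM6 when any 1 library except vehicle replicate 3 was left out (edgeR adjusted p = 0.0568 to 0.0798), and for TRIM5 and TRIM34 with some of them. TRIM21, TRIM68, TRIM3 and TRIM44 on the same chromosome did not pass. Chromosome 6 held 8 members, of which TRIM38, TRIM27, TRIM26 and TRIM39 were tested and none was called.

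The 24 members under the filter were mostly silent. TRIM17, TRIM42, TRIM49, TRIM50, TRIM51, TRIM58 and TRIM77 had no count in any library after rounding, which allows up to 3 counts in each at this depth, counting error only. A further 11 had at most 13 counts over all 8 libraries together, among them TRIM63, the muscle ligase MuRF1, and TRIM29 and TRIM31, known from epithelia. The remaining 6 were TRIM43, TRIM46, TRIM54, TRIM55, TRIM72 and TRIM74. In a fit without the filter, 6 of 59 TRIM genes with a count were higher (10.2%, against 7.21% of 33192 genes) and 8 lower (13.6%, against 8.13%). These shares are not on an equal footing, since 42 of the 59 TRIM genes but 14073 of the 33192 genes passed the filter. Among genes over the filter, 7.14% of TRIM genes were higher and 16.7% lower, against 12.0% and 14.9% of all genes.

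TRIM72, which encodes the membrane repair protein MG53 of striated muscle, had 3, 2, 10 and 2 counts with vehicle and 37, 32, 26 and 26 with TP-472. TRIM55, the sarcomere-associated ligase MuRF2, had 4, 6, 8 and 1 counts with vehicle and 25, 23, 31 and 29 with TP-472. Both muscle genes were therefore higher in every TP-472 library than in any vehicle library, at levels below 1 CPM before TMM scaling in every library. Their log2 fold changes in the fit without the filter were 2.73 (SE 0.491; edgeR adjusted p = 0.0015) and 2.41 (SE 0.476; edgeR adjusted p = 0.0029). The other muscle members had too few counts to tell: TRIM54 had 4, 0, 2 and 0 counts with vehicle and 4, 0, 5 and 3 with TP-472, and TRIM63 had 6 counts in all.

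TRIM46, which bundles microtubules at the start of the axon, was the member just outside the filter, over 1 CPM in 3 libraries. It had 52, 44, 92 and 29 counts with vehicle and 21, 19, 20 and 18 with TP-472. The groups did not overlap, and the log2 fold change without the filter was -1.53 (SE 0.349; edgeR adjusted p = 0.0072). TRIM43, a gene of the early embryo with the near-identical copy TRIM43B, had 1, 0, 0 and 0 counts with vehicle and 0, 4, 11 and 17 with TP-472. It was present in 3 of 4 TP-472 libraries at widely different counts, and with its near-identical copy its value is uncertain (edgeR adjusted p = 0.0247). TRIM43B was at 0 CPM in every vehicle library and at 0.104, 0.225, 0.111 and 0.132 CPM with TP-472. TRIM74, near-identical to TRIM73, had 2, 2, 4 and 2 counts with vehicle and 16, 9, 4 and 2 with TP-472, and TRIM73 and TRIM74 counted together had a log2 fold change of -0.56 (edgeR adjusted p = 0.292), and 0.0064 without vehicle replicate 3.

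**Figure D5:**
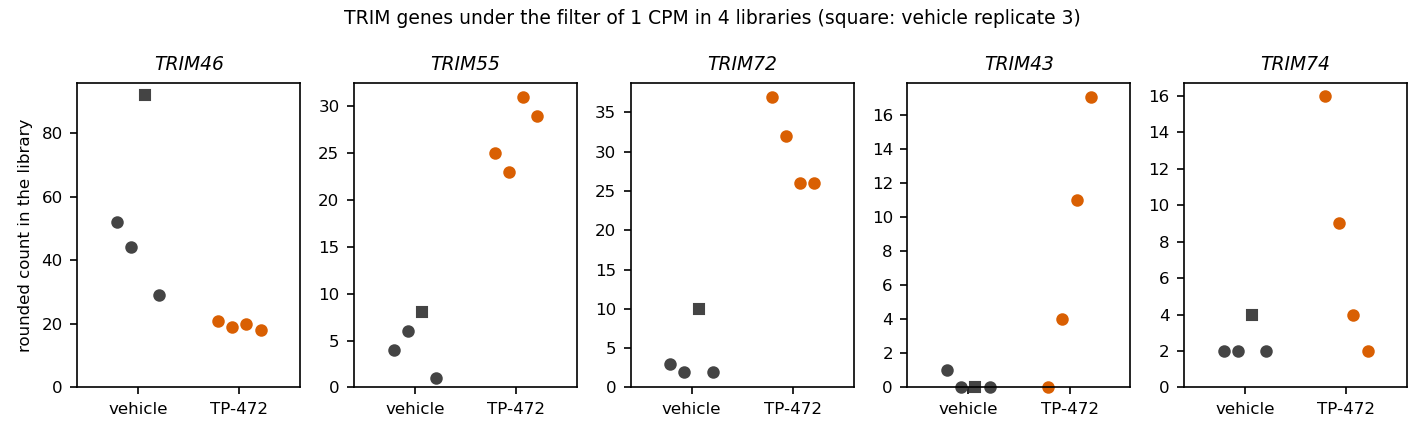
Rounded counts (y axes, each from 0) of 5 TRIM genes under the filter in each vehicle and TP-472 library, with vehicle replicate 3 as a square. TRIM55 and TRIM72 lie higher in all TP-472 libraries, TRIM46 lies lower, and TRIM43 and TRIM74 spread widely among the TP-472 libraries.

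The labelled cell type was checked on markers. Of 9 smooth muscle markers 7 were tested, with CALD1 the most abundant at 200 ± 15.3 CPM with vehicle and ACTA2 at 160 ± 16.7 CPM (SD, n = 4), while the defining genes MYH11 and ACTG2 were too low to test. MYH11 was at 0, 0, 0 and 0.0281 CPM with vehicle and at 0.259, 0.225, 0.194 and 0.264 CPM with TP-472. The summed smooth muscle level was 439, 479, 524 and 481 CPM with vehicle and 380, 378, 373 and 371 CPM with TP-472, and TAGLN, DES and LMOD1 fell. DES and LMOD1 were over 1 CPM with vehicle only, and would not have been tested at their TP-472 level. DES was at 3.49, 3.31, 3.01 and 3.18 CPM with vehicle and at 0.725, 0.62, 0.777 and 0.396 CPM with TP-472. LMOD1 was at 1.47, 3.54, 3.3 and 1.8 CPM with vehicle and at 0.776, 0.874, 0.472 and 0.687 CPM with TP-472. ACTA2 had -0.55 in 8 libraries, and was called lower without vehicle replicate 3 at -0.59 (edgeR adjusted p = 1.4e-04), which makes 4 lower. Over all genes 14.9% fell in 8 libraries, and 13.4% without that library. Like TRIM55 and TRIM72, MYH11 was thus higher in every TP-472 library than in any vehicle library, whereas DES had a log2 fold change of -2.36. Of 4 mesenchymal markers, all tested, COL1A2 (-2.58) and COL1A1 (-2.35, and -1.46 without vehicle replicate 3) fell, FN1 (1.16) rose and VIM, the most abundant, was not called. Among all genes 14.9% fell and 12.0% rose. The 4 mesenchymal markers summed to 2884, 2669, 4250 and 2750 CPM with vehicle and to 2020, 1947, 2093 and 1987 CPM with TP-472. The leukocyte genes CD3E and MS4A1 were at 0 in every library and PTPRC was at 0 in all but 1, with 1 of 5 leukocyte markers tested (CD68). None of 4 endothelial markers was tested, and they summed to 0.0554, 0.144, 0.116 and 0.112 CPM with vehicle and to 0.414, 0.536, 0.472 and 0.581 CPM with TP-472, with VWF or PECAM1 the most abundant, so these low values too were higher in every TP-472 library. Further, the 5 epithelial markers summed to 17.5 to 26.8 CPM, with KRT18 higher (1.08) and KRT19 lower (-0.85). In bulk RNA, fewer cells of a kind and less RNA per cell cannot be told apart, and the part of these marker changes in the TRIM values was not tested.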

How the data were processed

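All 8 libraries of SK-UT-1 cells, 4 per group, were used. Libraries were strand-specific, and the authors estimated transcript abundance with Salmon 1.4.0 on GRCh38, as the submitters' processing notes and the methods name them, then added the estimates up by gene with tximport. The values deposited by the authors are estimated counts per gene, not normalized, and were rounded to whole numbers here. Whether counting used strand is not given in the sources used here.

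Genes over 1 CPM in at least 4 libraries were kept and scaled by TMM. TP-472 was compared with vehicle over these 8 libraries in edgeR 4.0.16 (R 4.3.3) by its quasi-likelihood F test, with Benjamini-Hochberg adjustment over all 14073 genes and no further terms. Levels are TMM-scaled CPM. The genes named were the called TRIM genes, those whose call changed without vehicle replicate 3, the interferon-linked and PHD-bromodomain members, the 3 most abundant and those next to the filter; other genes named from the lists or under the filter were chosen after their values were seen. Members and lists were chosen with earlier results of these data known. The values of 1 gene of the signalling lists are not reported here, although counts include it. Gene positions, GC content and exon overlaps came from a GENCODE annotation of GRCh38. The alternatives were RLE and total-count scaling, DESeq2 1.42.0, limma-voom (limma 3.58.1) with quality weights, other filters, unrounded counts, no limit on fold, a replicate block and leaving out each library; removal of the GC trend and counts summed with the read-through or near-identical gene were added after seeing the data.

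A promoter window was found for 32 of the 42 tested genes (76.2%), so the share of the pattern over all tested TRIM genes was not used.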

Additional observations from a re-analysis of the deposited data

Results flagged for a closer look

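Vehicle replicate 3 stood far from the other 3 vehicle libraries for 9 TRIM genes, none of them called. The 84 groups of 4 libraries examined (42 genes, each with vehicle and with TP-472) were not independent, because the genes share the libraries. In these 9 (10.7%) an extreme library had a gap to its nearest neighbour over the limit, where chance gives about 1 in 20 for independent groups. All 9 were in vehicle replicate 3. It read high for TRIM11 (46.8 CPM against 29.1 to 31.5 in the others), TRIM47 (10.2 against 4.07 to 4.6), TRIM62 (11.5 against 2.39 to 3.77), TRIM7 (25.3 against 14.5 to 15.1), TRIM73 (5.99 against 1.85 to 2.36) and TRIM8 (21.6 against 8.28 to 10.1). It read low for TRIM33 (73.7 against 111 to 116), TRIM44 (80.8 against 104 to 107) and TRIM59 (25.3 against 47 to 50.2). Over all 42 tested genes it was the highest vehicle library for 22 and the lowest for 16.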

How the results depend on the processing

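TRIM22, TRIM14, TRIM45, TRIM2, TRIM35 and TRIM36 were called in the same direction under every alternative, and TRIM71 under every one that tested it (a filter of 5 CPM removed it, and TRIM34). The log2 fold change of TRIM22 ranged from -3.03 to -2.82 and that of TRIM36 from 2.15 to 2.48. TRIM2 kept its call narrowly, with a range from -0.828 to -0.586. The latter, without TP-472 replicate 2 (edgeR adjusted p = 0.0392), was barely more than 1.5-fold. TRIM genes called higher numbered 6 without the CPM filter and 5 with no limit on fold, and those called lower 11 with no limit on fold (11.9% and 26.2% of TRIM genes with no limit, against 17.2% and 19.1% of all genes). Leaving out 1 library at a time gave 4 to 9 TRIM genes lower, 4 without any 1 of TP-472 replicates 1, 2 and 3, and 2 to 4 interferon-linked genes lower. It gave 1387 (without TP-472 replicate 3) to 2399 lower among all genes. TRIM34 lost its call without vehicle replicate 1 or any 1 TP-472 library (edgeR adjusted p = 0.0555 to 0.0696), as did TRIM56 (0.0658 to 0.104), and TRIM66 in those cases except TP-472 replicate 4 (0.0621 to 0.0778). With limma-voom weights TRIM56 (-0.44) and TRIM66 (-0.53) fell below 1.5-fold. The sign of TRIM28 turned to 0.13 with those weights, 0.06 without vehicle replicate 3 and 0.17 with the GC trend removed. That of TRIM37 turned to -0.12, -0.096 and -0.047 in the same order, and that of TRIM3 to 0.062, 0.011 and 0.14. Leaving out 1 library at a time, TRIM28 ranged from -0.35 to 0.062, TRIM33 from -0.15 to 0.045 and TRIM3 from -0.17 to 0.011. The causes were not tested. Without the CPM filter TRIM5, TRIM6, TRIM27 and TRIM69 exceeded an adjusted p of 0.05 (0.0586 to 0.0663). TRIM6 was gained with the weights and with the GC trend removed, TRIM11 with the latter, TRIM65 without vehicle replicate 1 or 2 and TRIM9 without vehicle replicate 2.

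Deviations of same-numbered libraries from their group means had correlations of -0.06, 0.12, -0.17 and -0.18, so no pairing by replicate number was seen. Libraries with unlike numbers had -0.299 (vehicle replicate 1 with TP-472 replicate 2) to 0.398 (vehicle replicate 1 with TP-472 replicate 4). The vehicle mean includes vehicle replicate 3, which shifts the deviations of the other vehicle libraries, so these values cannot exclude pairing. With a replicate block 4 TRIM genes were called lower (9.52%, against 11% of all genes), 2 of them interferon-linked, TRIM34, TRIM56 and TRIM66 losing their calls, and TRIM33 was at 0.0036. TRIM5, TRIM6, TRIM27, TRIM65 and TRIM69 then exceeded an adjusted p of 0.05 (0.0591 to 0.0845).

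Counts near 1 CPM and genes under the filter rest on few reads, genes with shared exons or near-identical copies on how Salmon split them, and all calls on 4 libraries of 1 cell line.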
